A study of Mus musculus with 11 samples.

Results

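Epididymal fat, a visceral depot, was compared between mice without the kinin B1 receptor (B1-/-) and wild-type mice (B1+/+), with 4 arrays of each. These are 8 of the 11 arrays of the series, chosen by their labelled genotype; the 3 arrays of knockout mice with a fat-selective rescue were left out of the comparison and of the choice of probe sets. All mice were males of the C57BL/6 strain, 3 months old, on standard chow, with snap-frozen tissue and 1 one-colour Affymetrix array per sample, on which a signal is the brightness of a probe set in arbitrary units. The labels call the 4 arrays of a genotype biological replicates, and p-values measure the spread between these samples. The labels state neither whether the genotypes were littermates nor how the targeted allele was made.

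The B1 receptor, encoded by Bdkrb1, is a G protein-coupled receptor for kinins from which a terminal arginine has been removed. It is scarce in most healthy tissue and is induced by injury and inflammation, whereas the B2 receptor, encoded by Bdkrb2, is made constitutively and binds bradykinin. White fat stores triglyceride under the control of insulin, releases fatty acids when lipolysis is stimulated, and secretes adipokines.

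The tissue label was borne out by the adipocyte markers. Of 10 markers, 8 had a probe set of their own, and the brightest probe set of each read between 897.1 and 29006 in every array. A further 3 genes, which define the epididymis, the organ this fat surrounds, were in the table (Adam7, Gpx5 and Lcn5), and their signals lay between 1.5 and 30.4. The array medians lay between 41.2 and 45.0 in wild type and between 46.4 and 48.7 in knockout, so the genotypes did not overlap in this measure. The signal ratio of the 3′ to the 5′ actin control probe sets, which rises as RNA degrades, was 1.651 to 1.826 in wild type and 1.531 to 1.686 in knockout, and the ranges overlapped. In a principal component analysis wild-type array 1 was farthest out on the first component (51.9, with 33.3% of the variance) and knockout array 1 on the second (-36.1, with 15.8%). Many list medians, but not all, are also given with an array left out.

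The targeted gene was near background in both genotypes. The only Bdkrb1 probe set read 5.5, 32.2, 3.7 and 8.9 in wild-type arrays 1 to 4 and 4.8, 29.4, 6.9 and 29.7 in the knockout arrays. A single wild-type array and 2 knockout arrays gave the higher readings, and the groups overlapped. The mean was 12.6 ± 13.3 (SD, n = 4) in wild type and 17.7 ± 13.7 (n = 4) in knockout, a log2 difference of 0.58 (two-sided exact permutation p = 0.6286; the smallest that 4 against 4 arrays can give is 0.0286). Where the probes lie relative to the deleted sequence is not stated, so the readings are no check of the labelled genotypes. The probe sets of Bdkrb2 differed by -0.28 and -0.09 (exact permutation p = 0.4 and 0.8286), with all signals between 2.4 and 28.7.

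Across the transcriptome the genotypes lay close together. Of 12733 genes tested with limma, 2 passed a Benjamini-Hochberg adjusted p of 0.05 (0.0157%), Serpina1b upward (0.00785%) and Hsd11b1 downward (0.00785%). The log2 difference was under 0.5 in size in 92.1% of genes, and the median difference over all genes was 0.02. A higher mean in knockout was found for 53.7% of genes, for 25.9% after centring each array on its median and for 48.2% after quantile normalization, so counts of higher and lower members depend on the scaling. An unadjusted p under 0.05 was given by 876 genes (6.88%), 460 higher (3.61%) and 416 lower (3.27%) in knockout, where 637 would be reached if no gene differed. Groups did not overlap where all knockout arrays lay on 1 side of all wild-type arrays. For a gene that does not differ, chance gives this with a probability of 0.0286. It was so in 489 genes (3.84%), 253 of them higher (1.99%) and 236 lower (1.85%). That balance depended on scaling: after centring, 56 such genes were higher and 1233 lower, and after quantile normalization 184 and 288. Centring moved the median of all genes to -0.13, and list medians of that size depend on the scaling. Of 192 genes with a difference over 1 on the log2 scale, 22 had groups that did not overlap.

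**Figure D1:**
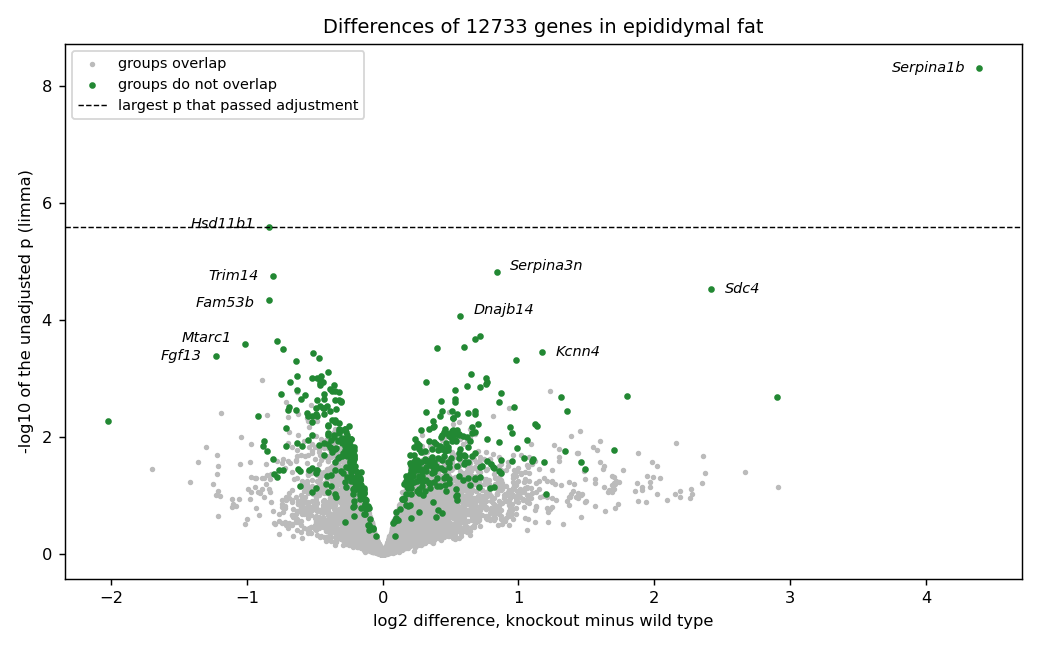
Each point is 1 of 12733 genes, with the log2 difference of knockout minus wild type on the horizontal axis and -log10 of limma's unadjusted p on the vertical axis; green points are the 489 genes whose groups do not overlap, and the dashed line marks the largest p that passed adjustment. Only Serpina1b and Hsd11b1 lie on or above the line, with Serpina3n, Trim14, Sdc4 and Fam53b below it.

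Serpina1b, one of several mouse genes for alpha-1-antitrypsin, the secreted inhibitor of neutrophil elastase made mainly by liver, was dim in wild-type fat and of moderate signal in knockout fat. Its probe set read 23.7, 29.1, 30.5 and 21.1 in wild-type arrays 1 to 4 and 392, 721, 810.4 and 370.1 in the knockout arrays. All knockout arrays were far above all wild-type arrays. The mean was 26.1 ± 4.44 in wild type and 573.5 ± 225 in knockout (SD, n = 4 each). Serpina1b rose by 4.39 ± 0.27 on the log2 scale (SE; limma, adjusted p = 6.42e-05). It passed under all 20 alternative settings, with differences from 2.96 to 6.18. The wild-type signal was below the array medians, so the size is not exact.

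A second Serpina1b probe set gave the same separation, at 1.4, 4.4, 4.7 and 1.2 in wild type and 489.8, 748, 858 and 442.7 in knockout (log2 difference 7.97). The order of the 4 knockout arrays was the same for both probe sets, with array 3 highest and array 4 lowest. The Serpina1 genes are near-identical copies, and a probe set assigned to 1 of them may detect others. The probe set of Serpina1c, another copy, overlapped between genotypes, at 12.0 to 28.7 in wild type and 11.9 to 36.2 in knockout.

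Hsd11b1 encodes 11-beta-hydroxysteroid dehydrogenase type 1, which regenerates active glucocorticoid from its inert form inside fat and liver cells. Its signal was 5910.3, 5364, 5618 and 5708 in the wild-type arrays and 2938, 3456, 3504 and 2812 in the knockout arrays. The arrays within a genotype lay close together, and the gap between genotypes was wider than either group's range. Hsd11b1 fell by 0.84 ± 0.09 on the log2 scale (SE, n = 4 per group; limma, adjusted p = 0.0161), a 1.79-fold difference. Its adjusted p ranged from 0.00178 to 0.199 over the alternatives. It missed the threshold with eBayes without trend (0.199), with the replicate number as a block (0.127), and without knockout array 1 (0.0883) or 4 (0.0643), or wild-type array 2 (0.0642) or 3 (0.12).

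**Figure D2:**
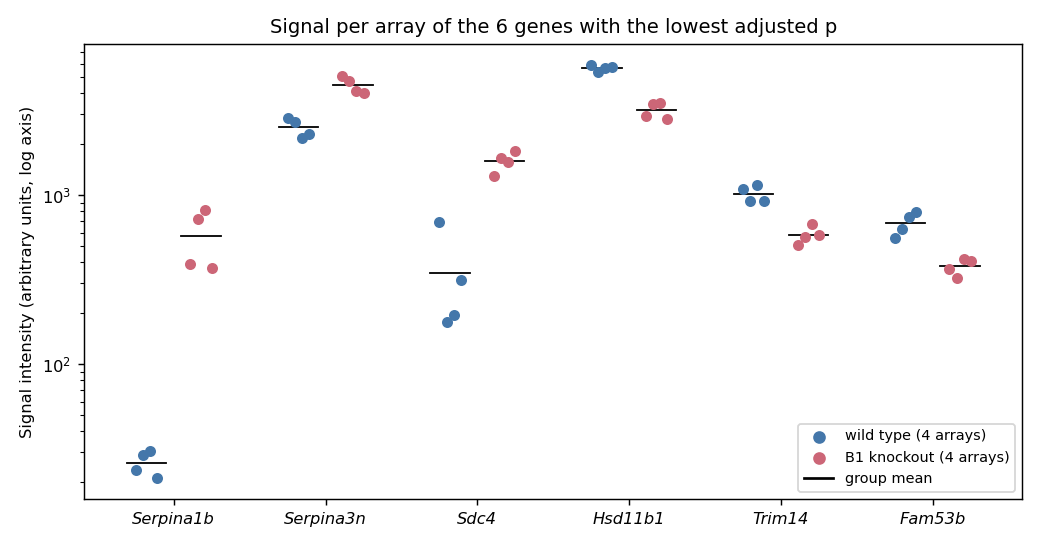
Signal of each array (points; blue wild type, red B1 knockout, 4 arrays each) and group mean (black line) on a log axis for the 6 genes with the lowest adjusted p. The groups are apart in all 6 genes, by the widest margin in Serpina1b, while wild-type array 1 reads 697 for Sdc4 against 176.5 to 313.3 in the other wild-type arrays.

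A further 4 genes had an adjusted p under 0.1 and groups that did not overlap, but none of them passed. Serpina3n, an acute-phase antiprotease released by liver and fat, read 2869, 2710.3, 2179 and 2302 in wild type and 5057, 4755, 4136 and 4024 in knockout (log2 difference 0.84 ± 0.11, SE; limma, adjusted p = 0.0566). Trim14, an adaptor in antiviral signalling, read 1085, 923, 1141 and 920.8 in wild type and 504, 564, 675 and 578 in knockout (-0.81 ± 0.11; limma, adjusted p = 0.0566). Each of these 2 passed under 7 of 20 alternatives, among them the fit that takes its spread from all 11 arrays of the series.

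Sdc4 encodes syndecan-4, a heparan sulfate proteoglycan of the cell surface. It read 697, 176.5, 193.9 and 313.3 in wild type and 1299, 1663, 1567 and 1811 in knockout (log2 difference 2.42 ± 0.35, SE; limma, adjusted p = 0.0744). Wild-type array 1 was the nearest to the knockout arrays, and without it Sdc4 passed. Sdc4 passed under 4 of 20 alternatives, with adjusted p from 0.000209 to 0.393 (limma), and differed by 1.06 with the mean of its probe sets. Its dimmer probe set differed by -0.31, the other way. Fam53b, a regulator of Wnt signalling, read 556, 633, 742 and 792 in wild type and 366, 324, 417 and 405.0 in knockout (-0.84 ± 0.13; limma, adjusted p = 0.0957), but its dimmer probe set differed by -0.03.

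Below these lay genes with unrelated roles that did not pass, named by their unadjusted p among genes whose groups did not overlap. Higher in mean were Ptpn6 (log2 difference 0.68), the phosphatase SHP-1 of blood cells, Kcnn4 (1.17), a calcium-activated potassium channel, and Zfp36l1 (0.40), an RNA-binding protein that promotes mRNA decay. Sbsn, for the epithelial protein suprabasin, differed by 0.60, and Dnajb14, a co-chaperone, by 0.57, though by -0.09 with its other probe set. Lower in mean were Tmem45b (-0.78), a transmembrane protein, Mtarc1 (-1.01), a mitochondrial amidoxime reductase, and Gpd2 (-0.64), the mitochondrial glycerol-3-phosphate dehydrogenase that passes electrons to the respiratory chain. Phgdh, the first enzyme of serine synthesis, differed by -0.51 and Serinc3, a membrane protein of the serine incorporator family, by -0.73. All probe sets of both genes read lower in mean in knockout. Fgf13, a non-secreted fibroblast growth factor homologue, differed by -1.23. Adjusted p lay between 0.157 for Dnajb14 and 0.318 for Gpd2. Itm2a, a membrane protein of differentiating mesenchymal cells, was among the largest differences of brighter genes at 0.86 (limma, adjusted p = 0.488).

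The genes that relay the insulin signal differed little between genotypes, and none passed. Of 29 measured, 17 had a higher and 12 a lower mean, with a median log2 difference of 0.04 (-0.11 after centring and -0.02 without wild-type array 1) against 0.02 over all genes. Insr, the insulin receptor, differed by 0.04 (95% interval -0.18 to 0.25) and Irs1, its main docking protein, by 0.16 (-0.28 to 0.60); the Insr sign turned with centring. Slc2a4 encodes GLUT4, the transporter that insulin brings to the cell surface. It read 2342, 1487, 1711 and 1476 in wild type and 1420.1, 1643, 1200 and 1463 in knockout. Wild-type array 1 was the highest, the groups overlapped, and the difference was -0.28 (-0.61 to 0.06).

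In 2 of the 29 genes the groups did not overlap, both lower, against 1.85% of all genes in that direction and 3.84% in either. Rhoq encodes TC10, a small GTPase of the GLUT4 pathway, and read 2309, 2545, 2176 and 2665 in wild type and 1996, 1810.3, 1871 and 1886 in knockout (log2 difference -0.35 ± 0.09, SE; limma, adjusted p = 0.462). Akt2 is the kinase isoform through which insulin drives glucose uptake. It read 1557, 1740, 1911 and 1933 in wild type and 1533, 1512, 1354 and 1526 in knockout. The gap was narrow, between 1557 in wild-type array 1 and 1533 in knockout array 1, and the difference was -0.27 ± 0.09 (adjusted p = 0.698); all 3 Akt2 probe sets gave -0.27. Pik3r1, the regulatory subunit of phosphoinositide 3-kinase, had the smallest p of the higher genes (0.37; limma, adjusted p = 0.71), with groups that overlapped. Socs3, an inhibitor of insulin and cytokine receptors, had the largest difference (0.59, interval -0.23 to 1.42).

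**Figure D3:**
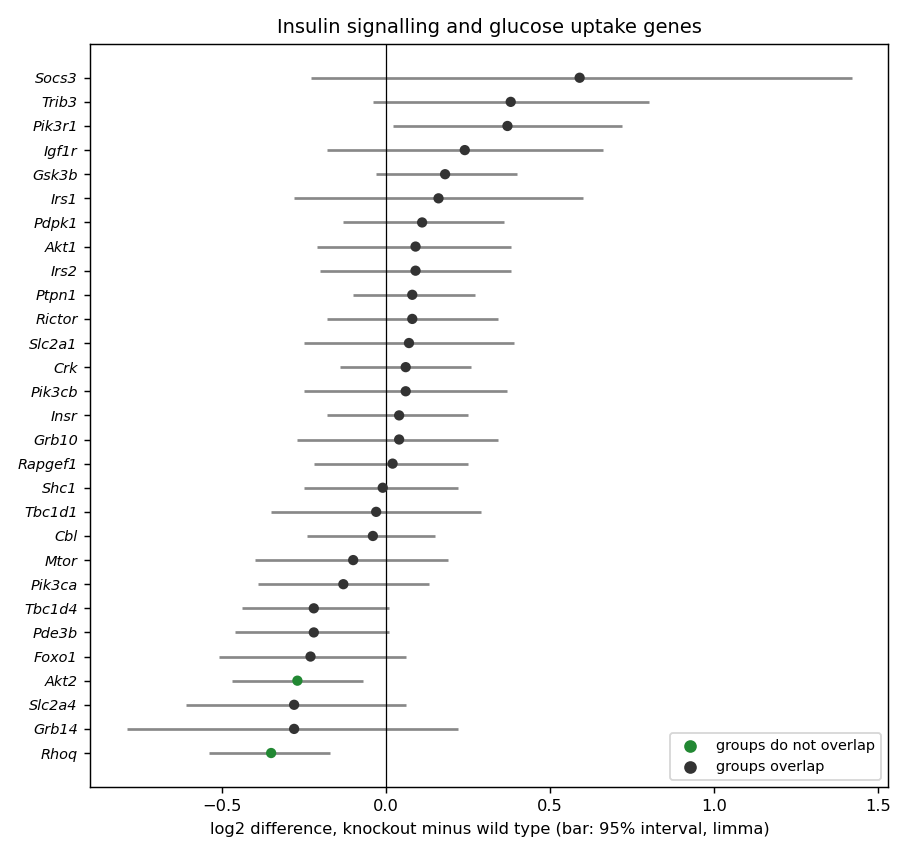
Points are log2 differences of knockout minus wild type for the 29 measured genes of insulin signalling and glucose uptake, with bars for limma's 95% interval (4 arrays per genotype). Differences run from -0.35 (Rhoq) to 0.59 (Socs3); the groups do not overlap in Rhoq and Akt2 (green), and no gene passed adjustment.

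Adipocyte and lipid genes leaned to lower means in knockout without any of them passing. All 16 measured adipocyte identity genes had a lower mean, with a median log2 difference of -0.22 (-0.37 after centring, -0.14 after quantile normalization, and -0.14 without knockout array 3 or 4). An unadjusted p under 0.05 was given by 3 of them, all lower, against 3.27% of all genes, and none had groups that did not overlap. Adipoq, the adipokine adiponectin, read 20886, 17114, 22331 and 23627 in wild type and 21356, 22284, 17622 and 15589 in knockout (-0.13). Both genotypes spanned the same range. Pparg, the master transcription factor of fat cells, differed by -0.22, Cidec, a protein of lipid droplet fusion, by -0.28, and Fabp4, the fatty acid binding protein of fat cells, by -0.13. Averaged over the 16 genes, the knockout arrays lay at -0.14, -0.05, -0.28 and -0.35 relative to the wild-type mean, and the wild-type arrays at 0.09, -0.14, 0.01 and 0.04. Knockout arrays 3 and 4 were below every wild-type array, and knockout array 2 was not.

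Of 28 measured genes of fatty acid and triglyceride synthesis, 26 had a lower mean (median -0.27), 8 of them with an unadjusted p under 0.05, against 3.27% of all genes. Thrsp, a lipogenic protein, read 13862, 9856, 10054 and 8489 in wild type and 8152, 8160.0, 7775 and 7340 in knockout (-0.40), and was the only member whose groups did not overlap. Acaca, which makes malonyl-CoA, differed by -0.54 and the elongase Elovl6 by -0.97, with 0.93 for its dimmest probe set. Wild-type array 4 read 233.8 for Elovl6, among the knockout values of 222.9 to 352.5, against 517 or more in the other wild-type arrays. Fads1, the delta-5 desaturase, went the other way (0.37).

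Genes of lipid breakdown also leaned to lower means, though this list shares genes, Lipe and Cidec among them, with the adipocyte identity list. In the lipolysis and lipid droplet list 18 of 21 had a lower mean (median -0.20). Mgll, the monoglyceride lipase of the last step, read 10952, 10059, 10291 and 11076 in wild type and 8450.0, 9281, 9030.0 and 7240 in knockout (-0.32 ± 0.10, SE; limma, adjusted p = 0.683). Its groups did not overlap. Lipe, the hormone-sensitive lipase, differed by -0.25, with 1.03 for a probe set near background, and its groups overlapped.

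Receptors and messengers that control lipolysis had array means of -0.22 to -0.08 in knockout and -0.07 to 0.04 in wild type. On the deposited values it was the only list of 46 in which every knockout array lay below every wild-type array. The margin was small, and array means were not computed after centring, which moved the list median to -0.32. Of 18 genes, 14 had a lower mean (median -0.17, and -0.11 without wild-type array 2), and in 3 the groups did not overlap in that direction, which was so in 1.85% of all genes. Npr3, the clearance receptor for natriuretic peptides, read 7191, 6869, 6248 and 8036 in wild type and 5827, 4629, 3785 and 5824 in knockout (log2 difference -0.52; limma, adjusted p = 0.56). Adcy5, an adenylyl cyclase, differed by -0.63, though one of its dimmer probe sets gave 0.26. Ffar2, a short-chain fatty acid receptor that restrains lipolysis, differed by -0.43. Pde4b, a phosphodiesterase that breaks down cyclic AMP, was higher (0.46) with groups that did not overlap, and 2 of its dim probe sets read lower.

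Mitochondrial genes differed by less. A lower mean was seen in 23 of 25 genes of fatty acid oxidation (median -0.15), 26 of 28 of the TCA cycle and pyruvate metabolism (-0.14), 43 of 46 of oxidative phosphorylation (-0.10) and 17 of 22 of branched-chain amino acid breakdown (-0.13). In that order the medians were -0.11, -0.10, -0.03 and -0.09 after quantile normalization, against -0.01 over all genes. After centring they were -0.30, -0.29, -0.25 and -0.28, against -0.13 over all genes. None passed, and in every one of these lists the array means of the genotypes overlapped on the deposited values. Wild-type array 1 was the highest of all 8 arrays in each, and without it the 4 medians were -0.09, -0.10, -0.05 and -0.07. Without knockout array 1 the median was -0.09 for fatty acid oxidation and -0.05 for branched-chain amino acid breakdown, which was -0.08 without knockout array 4. Cox8b, a cytochrome c oxidase subunit typical of brown fat, had the largest difference in oxidative phosphorylation (-0.70), with 379.9, 278.9, 271.2 and 231.3 in wild type and 172.8, 195.7, 217.3 and 128.4 in knockout. The groups did not overlap. Cidea, another gene of brown fat, differed by -0.67 with overlapping groups. Ogdh (-0.22) and Pdha1 (-0.30), subunits of the oxoglutarate and pyruvate dehydrogenases, had groups that did not overlap, with 0.21 for a dim Ogdh probe set. Hadhb, of the trifunctional protein of beta oxidation, differed by -0.32, with 0.44 for its dimmest probe set. In glycolysis the phosphofructokinase gene Pfkl (-0.28, with 0.20 for a dim probe set) and the lactate dehydrogenase gene Ldha (-0.34) had groups that did not overlap. Groups apart with lower knockout values were found in 1.85% of all genes.

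Adipokine genes did not share a direction, with 12 of 18 lower. The median was -0.17, -0.32 after centring, and -0.08 and -0.07 without knockout arrays 3 and 4. Rarres2, the precursor of chemerin, read 3574, 3345, 3525 and 2824 in wild type and 2396, 2571, 2141 and 2577 in knockout (log2 difference -0.45 ± 0.10, SE; limma, adjusted p = 0.443). Rbp4, the carrier of retinol, read 7866, 7813, 8506 and 6857 in wild type and 6363, 6455, 5564 and 4828 in knockout (-0.43 ± 0.11; adjusted p = 0.547). The groups of both were apart, in a direction found in 1.85% of all genes, but neither passed. Sfrp5, a secreted Wnt antagonist, had the largest difference (-1.30) with a wide spread, from 235.3 to 1047 in wild type.

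Around Hsd11b1, 16 of 20 genes of glucocorticoid activation and response had a lower mean (median -0.22), and Hsd11b1 was the only one that passed. Sult1a1, a phenol sulfotransferase, differed by -0.39, the metallothionein Mt1 by -0.34 and the cell cycle inhibitor Cdkn1a by -0.78, all with overlapping groups. Cdkn1a read 166.2, 450.8, 470.7 and 512 in wild type and 216.7, 215.7, 236.1 and 187.6 in knockout. Wild-type array 1 was the lowest of all 8, and without it Cdkn1a passed (limma, adjusted p = 0.00514). The mean over the list was -0.52 in wild-type array 1, 0.06 to 0.29 in the other wild-type arrays and -0.31 to -0.11 in the knockout arrays. Without wild-type array 1 the median was -0.36.

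Interferon-induced GTPases, which attack the vacuoles of intracellular pathogens, had higher means in knockout. Of 11 measured, 10 had a higher mean, with a median of 0.27 (0.12 after centring, 0.24 after quantile normalization). In 3 higher genes the groups did not overlap, which was so in 1.99% of all genes. None passed. Iigp1 read 619, 598, 670 and 499 in wild type and 1063, 920.0, 802 and 1160 in knockout (log2 difference 0.72 ± 0.13, SE; limma, adjusted p = 0.286). Igtp read 359.3, 303.0, 303.7 and 251.0 in wild type and 499.1, 404.1, 374.6 and 480.4 in knockout (0.53 ± 0.13; adjusted p = 0.488). Ifi47 had a difference of 0.38, with knockout array 1 at 351.6 and the other knockout arrays at 230.1 to 248.8. Irgm2 differed by 0.27, with knockout array 3 inside the wild-type range. The list mean was 0.57, 0.22, 0.13 and 0.56 in knockout arrays 1 to 4 and -0.03 to 0.04 in wild type.

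Promoter sequences of these genes are shown because 10 of the 11 members had a higher mean. The 120 bases before the RefSeq start site (GRCm38.p6) are written 5′ to 3′ on the gene's strand, with capitals for GAAANNGAAA, the core of the interferon-stimulated response element, and for TTCNNNGAA, the gamma-activated sequence bound by STAT factors. Both were searched on both strands.
Igtp, chr11:58199436-58199555, plus strand: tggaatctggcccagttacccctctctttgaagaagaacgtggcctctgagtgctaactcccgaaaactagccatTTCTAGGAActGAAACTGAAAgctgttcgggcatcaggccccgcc
Irgm2, chr11:58214857-58214976, plus strand: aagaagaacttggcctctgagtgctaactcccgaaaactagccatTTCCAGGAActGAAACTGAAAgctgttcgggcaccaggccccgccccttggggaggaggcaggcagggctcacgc
Irgm1, chr11:48871421-48871540, minus strand: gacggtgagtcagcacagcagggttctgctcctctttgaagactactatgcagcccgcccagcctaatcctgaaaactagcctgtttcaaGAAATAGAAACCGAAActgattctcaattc
Gbp2, chr3:142620543-142620662, plus strand: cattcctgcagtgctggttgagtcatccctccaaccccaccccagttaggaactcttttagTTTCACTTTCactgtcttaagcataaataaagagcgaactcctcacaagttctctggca
In Igtp and Irgm2 the TTCNNNGAA match came first and was followed after 2 bases by the GAAANNGAAA match, which began 34 and 64 bases before the start. In Irgm1 a pair of overlapping GAAANNGAAA matches began 30 and 24 bases before the start, and in Gbp2 the match lay on the other strand.

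Of the 11 measured GTPase genes, 7 had a RefSeq promoter window of 300 bases. GAAANNGAAA was in 6 of these, against 3.44% of all 32851 windows and 3.99% of all genes in that table. The 6 were Igtp, Irgm1, Irgm2, Gbp2, Gbp3 and Gbp7, the last 2 not shown above. Iigp1 and Ifi47 were not among the 6, but they did not both have a window, and genes without a window were not searched. TTCNNNGAA was in 3 of the 7, against 8.30% of windows. Carriers of GAAANNGAAA included Igtp and Irgm2, which differed by 0.53 and 0.27, and Irgm1 and Gbp2, which differed by 0.13 and 0.06. Groups overlapped in all of these but Igtp. A relation between matches and the size of the difference was not tested. A match is a description of the letters in the window. The list was drawn up as interferon-induced genes, so these shares say nothing about the arrays.

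Other immune genes were less uniform. Of 29 antiviral genes of the type I interferon response, 21 had a higher mean (median 0.12, -0.03 after centring and 0.07 without wild-type array 1). The 2 whose groups did not overlap, Trim14 and Parp9 (-0.28), were lower, which was so in 1.85% of all genes. Parp9 is an ADP-ribosyltransferase-like protein of antiviral signalling. Rtp4, an interferon-induced chaperone of receptors, differed by 0.32. In antigen presentation 13 of 17 were higher (median 0.15, -0.00 after centring and 0.08 without wild-type array 1). Psmb9 and Psmb8, immunoproteasome subunits, each differed by 0.23, and Nlrc5, the activator of MHC class I genes, by 0.37. The groups did not overlap in these 3, in a direction found in 1.99% of all genes. A Psmb8 probe set near background read -1.86. Among chemokines and cytokines 17 of 22 were higher (median 0.11, -0.04 after centring, and 0.17 to 0.18 without knockout array 3 or wild-type array 2 or 3), with Ccl5 at 0.60 and Cxcl16, the one whose groups did not overlap, at 0.36.

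Markers of macrophages and other myeloid cells were highest in knockout array 1. Of 28, 27 had a higher mean in knockout (median 0.27), but the array means were 1.13, 0.14, -0.03 and 0.20 in knockout and -0.31, 0.29, 0.09 and -0.08 in wild type, and the median without knockout array 1 was 0.07. Mpeg1, perforin-2 of macrophages, read 2081 in knockout array 1 and 699 to 836 in the other knockout arrays, against 455.0 to 838 in wild type. Csf1r, the receptor that sustains macrophages, differed by 0.03 with a sign that turned with centring, and Lyz2, the brightest marker, by 0.30. Cybb, the phagocyte NADPH oxidase subunit, had the smallest p (0.64; limma, adjusted p = 0.686), and Cd52 differed by 0.67. Lymphocyte markers were likewise highest in knockout array 1 (0.74, against 0.13 to 0.21 in the other knockout arrays and -0.58 to 0.46 in wild type). In bulk tissue a different number of cells of a type and a different amount of RNA per cell cannot be told apart. The part of these cells in the interferon and antigen presentation results was not tested, and without knockout array 1 the medians were 0.22 for the GTPases and 0.08 for antigen presentation.

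Markers of other cell types had small differences, and their array means overlapped on the deposited values. Of 22 endothelial genes 18 had a lower mean, with a median of -0.10 (-0.18 and -0.06 with wild-type array 1 or 3 left out, and -0.17 with knockout array 2 left out). The groups did not overlap in Ptprb (-0.24), the endothelial phosphatase, and Flt1 (-0.35, with 0.07 for 1 dimmer probe set), a receptor of vascular endothelial growth factor. Epas1, the hypoxia-inducible factor of endothelium and fat cells, read 6158, 6325, 6471 and 6521 in wild type and 5544, 5633, 5719 and 4738 in knockout (-0.24). The groups were apart in each, in a direction found in 1.85% of all genes, but none passed. Mesothelial markers (13 of 17 higher, median 0.11) and fibroblast markers (13 of 17, median 0.07) had medians of -0.03 and -0.07 without wild-type array 1, and of -0.04 and -0.08 after centring. Krt18, a keratin of mesothelium, differed by 0.91 with a wide spread and overlapping groups. Collagen and matrix genes had a median of 0.03, of -0.14 without knockout array 1, and of -0.12 after centring. Col4a1, a basement membrane collagen, differed by -0.25.

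Immediate early genes, transcribed within minutes of a stimulus, had higher means in knockout. Of 26, 20 had a higher mean, and none passed. The median was 0.19, 0.04 after centring, 0.17 after quantile normalization, 0.11 when wild-type array 1 was left out and 0.12 when knockout array 3 was. Of the higher genes, 6 had an unadjusted p under 0.05 (3.61% of all genes) and 4 had groups that did not overlap (1.99% of all genes). Junb, a subunit of the AP-1 transcription factor, read 94.4, 64.2, 90.6 and 85.3 in wild type and 149.1, 153.3, 120.9 and 126.4 in knockout (log2 difference 0.72; limma, adjusted p = 0.443). Egr1, a zinc finger transcription factor, read 493.4, 402.6, 290.0 and 493.0 in wild type and 665, 589, 558 and 847 in knockout (0.68; adjusted p = 0.55). Ier5 and Ier2, both named as immediate early response genes, differed by 0.87 and 0.37. The list mean was 0.15 to 0.34 in the knockout arrays and -0.05 to 0.05 in the wild-type arrays.

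Heat shock proteins did not share the direction of the immediate early genes, with 6 of 18 higher (median -0.08, and -0.04 without wild-type array 1). Cryab, a small heat shock protein, differed by -0.47 with groups that did not overlap, with 1.11 for a probe set near background. In the cell cycle 18 of 28 had a higher mean (median 0.10; -0.05 after centring, -0.03 and 0.22 with knockout array 1 or 2 left out, and 0.21 with wild-type array 2 left out). Mcm2, a subunit of the replicative helicase, differed by 0.93. Among acute-phase, complement and serpin genes the direction was split, with 10 of 18 higher. Complement component C2 read 2311, 2498, 2002 and 2148 in wild type and 1678, 1767, 1739 and 1760.5 in knockout (-0.36; limma, adjusted p = 0.443). Its groups did not overlap. Orm1, the acute-phase protein orosomucoid, differed by -0.85 with overlapping groups, the opposite side from Serpina1b and Serpina3n.

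**Figure D4:**
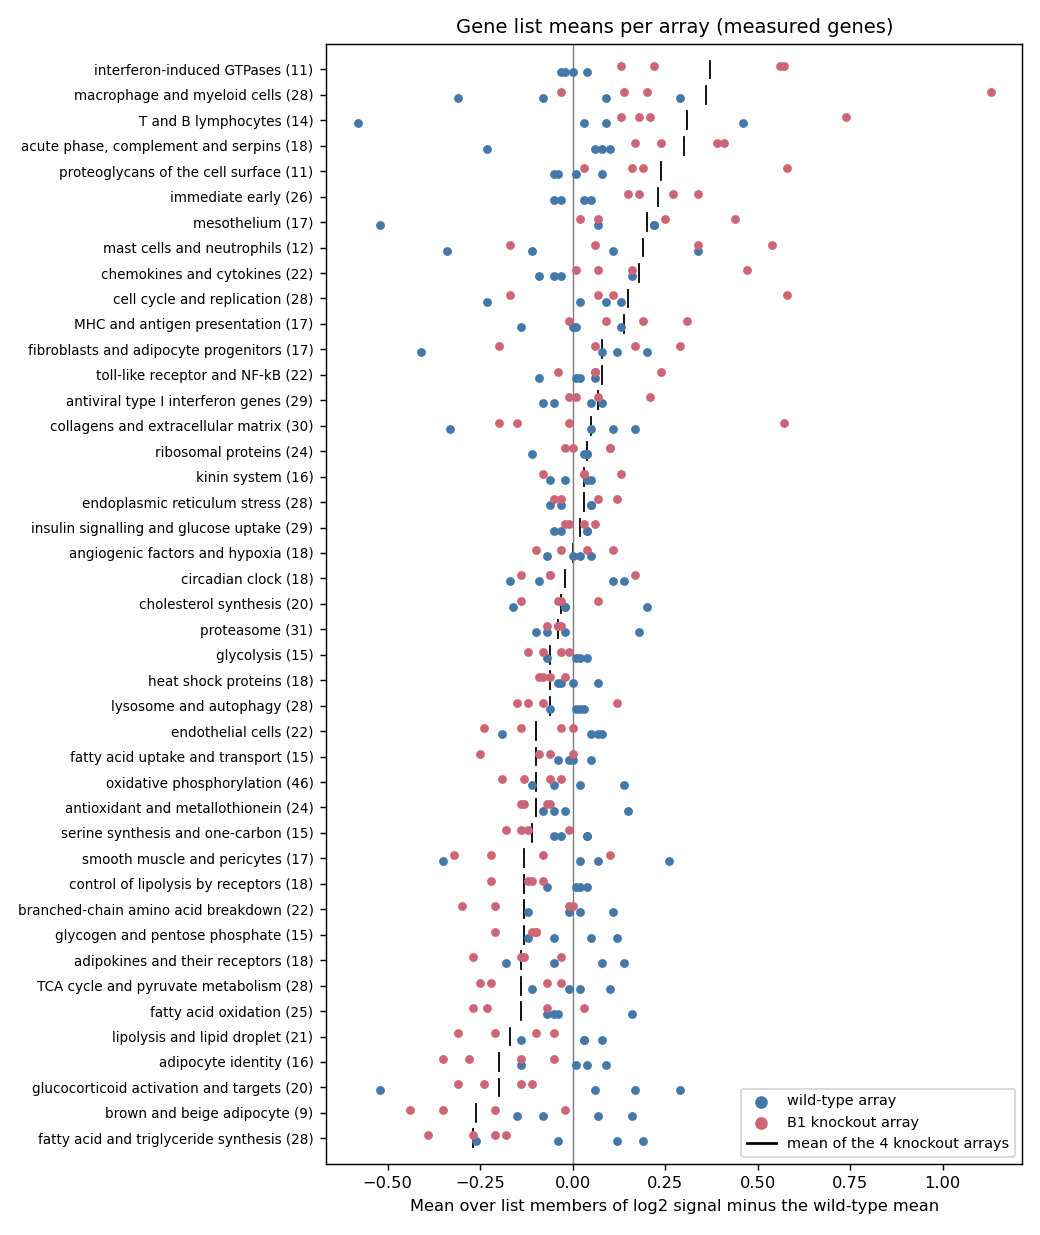
For each gene list with at least 9 measured genes (number in brackets), points give the mean over its members of log2 signal minus the wild-type mean in each wild-type (blue) and B1 knockout (red) array, and the black line is the mean of the 4 knockout arrays. On the deposited values the genotypes separate for interferon-induced GTPases, immediate early genes, acute-phase genes (whose mean includes Serpina1b) and control of lipolysis, and overlap elsewhere. Array means were not computed after centring, and which lists separate may depend on the scaling. Knockout array 1 stands out for macrophage markers at 1.13.

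Bdkrb1 lies on chromosome 12, and this chromosome held the largest share of genes whose groups did not overlap. That was so for 34 of 452 tested genes (7.52%; 20 higher and 14 lower), against 452 of 12249 (3.69%) on the other chromosomes, which ranged from 2.48% to 5.36% on X. The shares were 8.41% and 3.53% after quantile normalization and 13.5% and 10.0% after centring. With 1 array left out the share on chromosome 12 was 9.11% to 12.7%, and that on the others 5.71% to 8.06%. Besides Serpina1b and Serpina3n, the chromosome holds Zfp36l1, Vcpkmt (0.98), a lysine methyltransferase, Dtd2 (0.77), a D-aminoacyl-tRNA deacylase, and Cmpk2 (0.65, with -0.49 for its other probe set), an interferon-induced nucleotide kinase, all with groups that did not overlap.

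In gene order Serpina1b was the 11th and Serpina3n the 9th measured gene before Bdkrb1. The 8 measured genes between Serpina3n and Bdkrb1 all had overlapping groups. Among them Clmn differed by -0.63 and Syne3 by -0.44 (limma, unadjusted p = 0.0017 and 0.0446). After Bdkrb1 the nearest gene whose groups did not overlap was Xrcc3 (0.30), the 44th measured. Before Serpina1b the nearest were Ddx24 (-0.16), Itpk1 (-0.23), Trip11 (-0.26), Kcnk13 (0.82) and Galc (-2.02), which was 48 measured genes before Bdkrb1. In windows of 25 measured genes along the chromosome, 0 to 5 genes per window had groups that did not overlap, and the window that holds Bdkrb1 had 3. Vcpkmt was 197 and Cmpk2 300 measured genes before Bdkrb1.

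**Figure D5:**
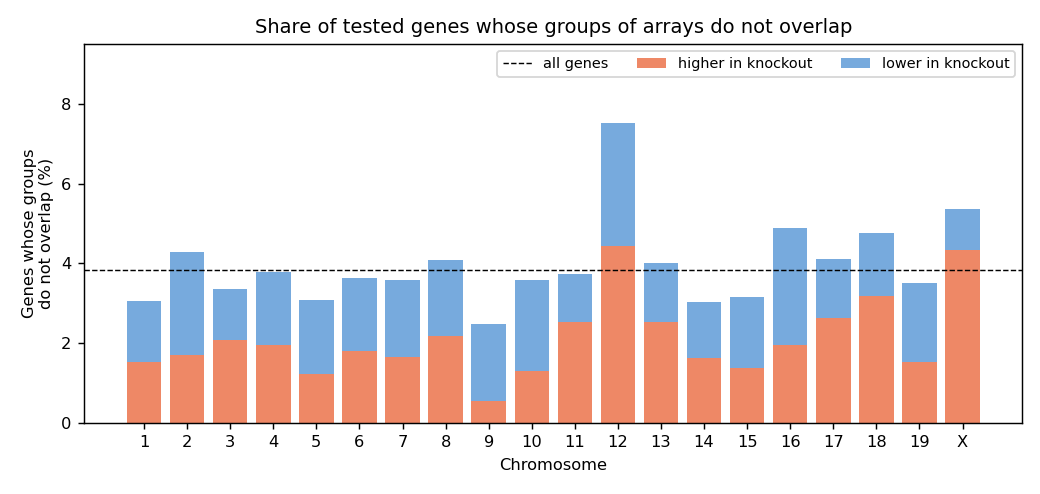
Bars give the percentage of tested genes on each chromosome whose knockout arrays lie all above (orange) or all below (blue) the wild-type arrays, from an axis starting at 0, with the share over all genes (3.84%) as a dashed line. Chromosome 12, at 7.52%, is the highest and X, at 5.36%, the next.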

How the data were processed

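Total RNA of epididymal fat was labelled and hybridized by the authors to arrays, 1 for each sample. Their deposited values are the authors' linear signal intensity of 45101 probe sets, made with GCOS 1.3 and MAS5 per the submitters' processing notes. With the top and bottom 2% trimmed, the mean of every array was 200.0, so arrays share a scale, and array medians differed by 0.241 (log2); no further normalization was applied. A value of 0 was set to 0.1. Probe sets with 1 symbol (34945; 64 controls, 932 with several symbols and 9160 with none were left out) in the upper 60% of mean log2 signal over the 8 arrays were kept, and the brightest stood for its gene, which gave 12733 genes; gene order and chromosomes came from the RefSeq table of GRCm38.p6. Knockout and wild type were compared with limma 3.58.1 (lmFit and eBayes with trend, R 4.3.3), two-sided, with Benjamini-Hochberg adjustment over all genes and a threshold of 0.05, and Bdkrb1 and Bdkrb2 with exact permutation tests over 70 divisions of the arrays.

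The genes, 46 lists (871 of 1048 genes measured) and alternatives were chosen with earlier results of these data known, and lists are described by counts and medians without a test. Genes named are Bdkrb1 and Bdkrb2, those that passed, the 12 in each direction with the smallest p and the 5 with the largest differences among genes whose groups do not overlap, up to 4 members per list by p, the 3 brightest of cell type and tissue lists, and insulin genes; not all are named. Irgm1, Gbp2, Gbp3, Gbp7, Serpina1c, neighbours of Bdkrb1 and the epididymal markers were added for the sequences, gene order and checks.

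On simulated arrays 33.4%, 65.4% and 89.4% of genes changed 1.5-, 2- and 4-fold were recovered, with 3.82% false calls; these shares hold for 200 changed genes and are too high where few change. The alternatives were quantile normalization, median centring, log2(value + 50), no filter, the upper 40% of probe sets, mean and single probe sets, eBayes without trend or robust, array weights, all 11 arrays, the replicate number as a block, and leaving out each array. The number of arrays limits the precision. No batch or scan date is given in the labels.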

Additional observations from a re-analysis of the deposited data

Results flagged for a closer look

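In 264 groups of 4 arrays checked, a single array far from the other 3 was looked for. The measure was the ratio of its gap to the group's range (Dixon's 95% critical value), which chance passes in about 1 of 20 groups. The check flagged 18 groups, so many of the flags below can be chance. Among wild-type arrays, array 1 stood apart low for Cdkn1a (166.2), for the list means of acute-phase, complement and serpin genes (-0.23), endothelial genes (-0.19) and ribosomal protein genes (-0.11), and high for fatty acid oxidation (0.16). Wild-type array 2 was low for Lipe (6972) and high for Cryab (1767), and array 4 was low for Mtarc1 (353.8). Among knockout arrays, array 1 was high for Mpeg1 (2081), Psmb9 (453.5) and the lymphocyte list mean (0.74). Knockout array 2 was high for Sult1a1 (2853) and low for Mcm2 (136.9). Knockout array 3 was low for Akt2 (1354) and for glycogen and pentose phosphate genes (-0.21), and high for Pde4b (197.2). Knockout array 4 was low for Ldha (4544) and Epas1 (4738).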

How the results depend on the processing

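The count of genes that passed, 2 in the fit reported (1 higher, 1 lower), was 5 (3 higher, 2 lower) with all 11 arrays or log2(value + 50), 6 (3 and 3) with array weights, 4 (2 and 2) with robust eBayes or the upper 40% of probe sets, 4 (1 and 3) with median centring, and 3 with quantile normalization or single probe sets (2 higher in each). It was 1, with 0 lower, with eBayes without trend. Leaving out 1 array gave 1 to 8 (1 to 3 higher, 0 to 5 lower): 1 without wild-type array 2 or 3 or knockout array 1 or 4, 3 without knockout array 2 or 3, 4 without wild-type array 4 and 8 without wild-type array 1. Groups did not overlap in 1289 genes after centring, in 928 single probe sets, and in 743 to 1042 genes with 1 array left out, where fewer arrays must separate. Insr turned to -0.11 with centring and ranged from -0.03 to 0.07 with 1 array left out, negative without wild-type array 1 or knockout array 2 (-0.00). Csf1r turned to -0.12 with centring and -0.01 with array weights, and ranged from -0.11 to 0.14 with 1 array left out, negative without knockout array 1 or wild-type array 1 or 4. Fabp4 read 0.00 with the mean of its probe sets. The cause of these changes was not tested. Bdkrb1 differed by 0.11 to 1.2 over its alternatives and did not pass in any.

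The labels number both genotypes from 1 to 4. Same-numbered arrays deviated together in part only (correlations of 0.144, -0.124, -0.035 and 0.24), so the numbers were not taken as pairing. With the replicate number as a block 1 gene passed (Serpina1b), 0 lower, and Hsd11b1 had an adjusted p of 0.127 (limma).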

Other observations

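The remaining gene lists held no gene that passed. In the kinin system, from kallikreins and kininogens to the peptidases that trim kinins, 8 of 16 measured genes had a higher mean and 8 a lower one (median log2 difference 0.01, and -0.13 after centring), and no gene had an unadjusted p under 0.05. Circadian clock genes also had none under 0.05 (8 of 18 higher, median -0.07). Genes of endoplasmic reticulum stress (18 of 28 higher, median 0.02) and ribosomal proteins (17 of 24, 0.04) lay near the median of all genes, and both medians turned negative with centring (-0.13 and -0.11). Proteasome genes were mostly lower in mean (23 of 31, median -0.06), as were lysosome and autophagy genes (21 of 28, -0.08), antioxidant genes (18 of 24, -0.09), and genes of glycogen and pentose phosphate metabolism (11 of 15, -0.18). Glycolysis had 10 of 15 lower (-0.11), cholesterol synthesis 11 of 20 (-0.06), and fatty acid uptake 11 of 15 (-0.08, but 0.01 after quantile normalization). Brown and beige fat genes had 6 of 9 lower (-0.19), serine and one-carbon genes 9 of 15 (-0.03), and hypoxia and angiogenic genes 9 of 18 (-0.01). Many of these medians depended on 1 array. Without wild-type array 1 they were -0.01 for the proteasome, -0.02 for antioxidant genes, -0.09 for glycogen and pentose phosphate, -0.07 for glycolysis and -0.05 for the kinin system. Cholesterol synthesis ranged from -0.12 to 0.00, brown and beige fat from -0.33 to -0.10, and fatty acid uptake from -0.14 to -0.02 with 1 array left out. Hypoxia and serine genes had medians of 0.06 and 0.02 without knockout array 1.

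Toll-like receptor and NF-kB genes had 14 of 22 higher (median 0.11, -0.04 after centring and 0.01 without knockout array 1). Of the surface proteoglycans, Sdc4 included, 8 of 11 were higher, with a median of 0.06 (-0.09 after centring and -0.01 without knockout array 1). Smooth muscle and pericyte markers had 11 of 17 lower (-0.11, but 0.02 without wild-type array 3). Mast cell and neutrophil markers had 8 of 12 higher (0.20, with 0.11 without knockout array 1 and 0.35 without knockout array 4), and lymphocyte markers 12 of 14 (0.30, with 0.13 when knockout array 1 and 0.03 when wild-type array 1 was left out). Skeletal muscle markers had 5 of 7 higher (0.14, but -0.32 without knockout array 1 and -0.01 after centring). Only 2 epididymal and 2 red blood cell genes were bright enough to be measured, and their medians were -0.15 and -0.26.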
